A study of Mus musculus with 35 samples.

Results

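The pyruvate dehydrogenase kinases Pdk1, Pdk2, Pdk3 and Pdk4 were followed in mouse hearts with and without the insulin receptor substrates Irs1 or Irs2, after pressure overload or a sham operation. They were chosen by name, as the 4 genes of this family among the 27012 genes in the table, and all 4 passed the filter of a mean normalized count of at least 10 over all libraries. Transaortic constriction (TAC) narrows the aorta and raises the load on the left ventricle. Mice of the mixed strain C57Bl/6/FVB had surgery at 6 weeks of age, and stranded mRNA sequencing was done on the heart apex taken on day 3. The group called WT here carried floxed Irs2 without Cre. IRS1KO mice carried floxed Irs1 and IRS2KO mice floxed Irs2, each with alphaMHC-Cre, which deletes in cardiomyocytes and not in the other cells of the apex. No group carried Cre alone and none carried floxed Irs1 without Cre, so effects of Cre and of the Irs1 alleles cannot be told apart from the deletion in those contrasts. Each of the 3 genotypes had 6 sham and 6 TAC libraries, except for 5 in WT TAC, 35 in all. Whether every library stands for its own mouse is not stated in the labels, so p-values here reflect only how these libraries vary, which may be technical in part.

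Pyruvate dehydrogenase turns pyruvate into acetyl-CoA in mitochondria and so sets how much glucose carbon enters the tricarboxylic acid cycle. The 4 kinases phosphorylate its E1 alpha subunit and switch the complex off, and the phosphatases Pdp1 and Pdp2 switch it back on. In heart, Pdk2 and Pdk4 are known as the main forms. Pdk4 is known to be induced by fasting, fatty acids acting through PPAR receptors, FoxO factors and glucocorticoids, and to be repressed by insulin, whose signal the insulin receptor substrates carry. Pdk1 and Pdk3 are known as targets of the hypoxia factor Hif1a in other cells.

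Reads assigned to genes ranged from 11707111 to 14609467 per library. Irs1 averaged 233 ± 52.5 normalized counts (SD, n = 6) in WT sham and 25.9 ± 15.1 in IRS1KO sham hearts, with no overlap, and after TAC 181 ± 40.6 (n = 5) in WT and 27.4 ± 27.4 in IRS1KO hearts (adjusted p = 0.000431 and 0.00246 in limma). Irs2 averaged 217 ± 174 in WT sham and 123 ± 14.4 in IRS2KO sham hearts, and its ranges overlapped (93.0 to 564 against 98.1 to 138), so the level of Irs2 does not separate the 2 labels in sham. After TAC, Irs2 averaged 239 ± 68.6 in WT and 121 ± 41.2 in IRS2KO hearts, and neither difference passed the test (adjusted p = 1 and 0.695). Summed levels of 12 cardiomyocyte markers, none at 0 in any group, ran from 1109030 to 1262120 in sham and from 499923 to 1107810 in TAC libraries, and the share of reads from the mitochondrial genome from 26.4% to 31.3% in sham and from 15.6% to 28.0% in TAC. After TAC all 10 markers of macrophages and monocytes rose in each of the 3 genotypes. Of all genes 28.3%, 32.4% and 31.3% were called higher in WT, IRS1KO and IRS2KO (limma, adjusted p under 0.05). In whole apex tissue, fewer cells of a type and less RNA per cell cannot be told apart.

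Pdk1 (ENSMUSG00000006494) lies on chromosome 2 from 71873224 to 71903858 of GRCm38, plus strand. Pdk2 (ENSMUSG00000038967) lies on chromosome 11 from 95026258 to 95041354, Pdk3 (ENSMUSG00000035232) on chromosome X from 93764607 to 93832201 and Pdk4 (ENSMUSG00000019577) on chromosome 6 from 5483351 to 5496309, all on the minus strand. All are protein-coding, and the values count reads over the whole gene model, with no split by exon or UTR. Their coding sequences hold 1302, 1221, 1245 and 1236 bases, over 11, 11, 12 and 11 exons. Pairs of coding sequences were 61.1% to 66.2% identical and shared at most 29 bases in a row (Pdk3 and Pdk4). The 1 annotated gene overlapping a kinase, Gm11513 antisense to Pdk2, shares 0 exon bases with it and averaged 0.323 normalized counts.

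The sequences just upstream of the 4 genes are shown because the kinases moved in different directions in the same hearts. They come from RefSeq (GRCm38.p6), run 5′ to 3′ toward the gene, and were trimmed to end before every annotated start. Capitals mark matches, on either strand, to the motif CCAAT, to the motif GCGTG and to the E-box CACGTG.
Pdk1 upstream, chr2:71872974-71873214, plus strand: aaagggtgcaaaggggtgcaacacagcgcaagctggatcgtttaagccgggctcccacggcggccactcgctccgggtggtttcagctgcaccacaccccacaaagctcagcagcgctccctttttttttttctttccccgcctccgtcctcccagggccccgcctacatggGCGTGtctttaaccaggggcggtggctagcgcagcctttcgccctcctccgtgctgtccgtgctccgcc
Pdk2 upstream, chr11:95041372-95041621, minus strand: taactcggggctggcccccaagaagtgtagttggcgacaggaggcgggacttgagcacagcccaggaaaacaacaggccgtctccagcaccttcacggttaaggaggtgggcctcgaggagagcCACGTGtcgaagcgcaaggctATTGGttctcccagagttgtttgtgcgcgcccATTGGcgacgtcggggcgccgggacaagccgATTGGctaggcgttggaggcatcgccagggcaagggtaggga
Pdk3 upstream, chrX:93832202-93832400, minus strand: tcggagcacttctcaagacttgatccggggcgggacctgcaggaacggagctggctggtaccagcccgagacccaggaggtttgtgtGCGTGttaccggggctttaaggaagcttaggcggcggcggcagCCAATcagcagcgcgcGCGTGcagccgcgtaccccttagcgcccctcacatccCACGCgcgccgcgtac
Pdk4 upstream, chr6:5496310-5496528, minus strand: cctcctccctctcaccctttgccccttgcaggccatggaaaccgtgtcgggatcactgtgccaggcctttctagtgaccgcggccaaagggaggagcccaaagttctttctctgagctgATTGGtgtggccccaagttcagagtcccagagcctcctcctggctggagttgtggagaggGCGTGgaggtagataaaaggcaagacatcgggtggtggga
Searched on both strands, CCAAT occurred 3 times upstream of Pdk2 and 1 time each upstream of Pdk3 and Pdk4, and 28.2% to 33.8% of 32851 RefSeq promoters hold it in a window of these lengths. GCGTG, a hypoxia-element core, occurred 3 times upstream of Pdk3 and 1 time each upstream of Pdk1 and Pdk4, against 22.4% to 28.2% of promoters. The Pdk2 window holds 1 CACGTG (6.02% of promoters), which contains the other hypoxia-element core ACGTG on each strand (16.6%). None of the 4 windows holds the FoxO core GTAAACA (2.56% to 3.17%), the nuclear receptor half-site AGGTCA (11.3% to 14.0%), the glucocorticoid half-site AGAACA (13.2% to 16.1%) or TATAAA (9.11% to 12.4%). These matches describe the letters in the windows and say nothing of binding.

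After TAC, 3 kinases changed in all 3 genotypes: Pdk2 and Pdk1 fell and Pdk3 rose, although the fall of Pdk1 in IRS1KO hearts was lost with the same total per library. Pdk4 fell 5.70-fold in IRS2KO hearts. It fell 1.61-fold by the means in IRS1KO hearts, a call that was lost with the same total per library, in edgeR, in DESeq2 and without either of 2 libraries. In WT it stood at 22116 ± 7277 in sham and 18425 ± 7382 in TAC hearts, a difference that did not pass the test. Calls are from limma on log2(normalized count + 1), Benjamini-Hochberg adjusted over 13695 genes, at an adjusted p under 0.05. By this rule 3 of 4 kinases were called in WT, where 54.9% of all genes were (26.6% lower, 28.3% higher). In IRS1KO all 4 were called, where 64.1% of genes were (31.7% lower, 32.4% higher), and in IRS2KO all 4, where 62.4% were (31.1% lower, 31.3% higher).

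**Figure D1:**
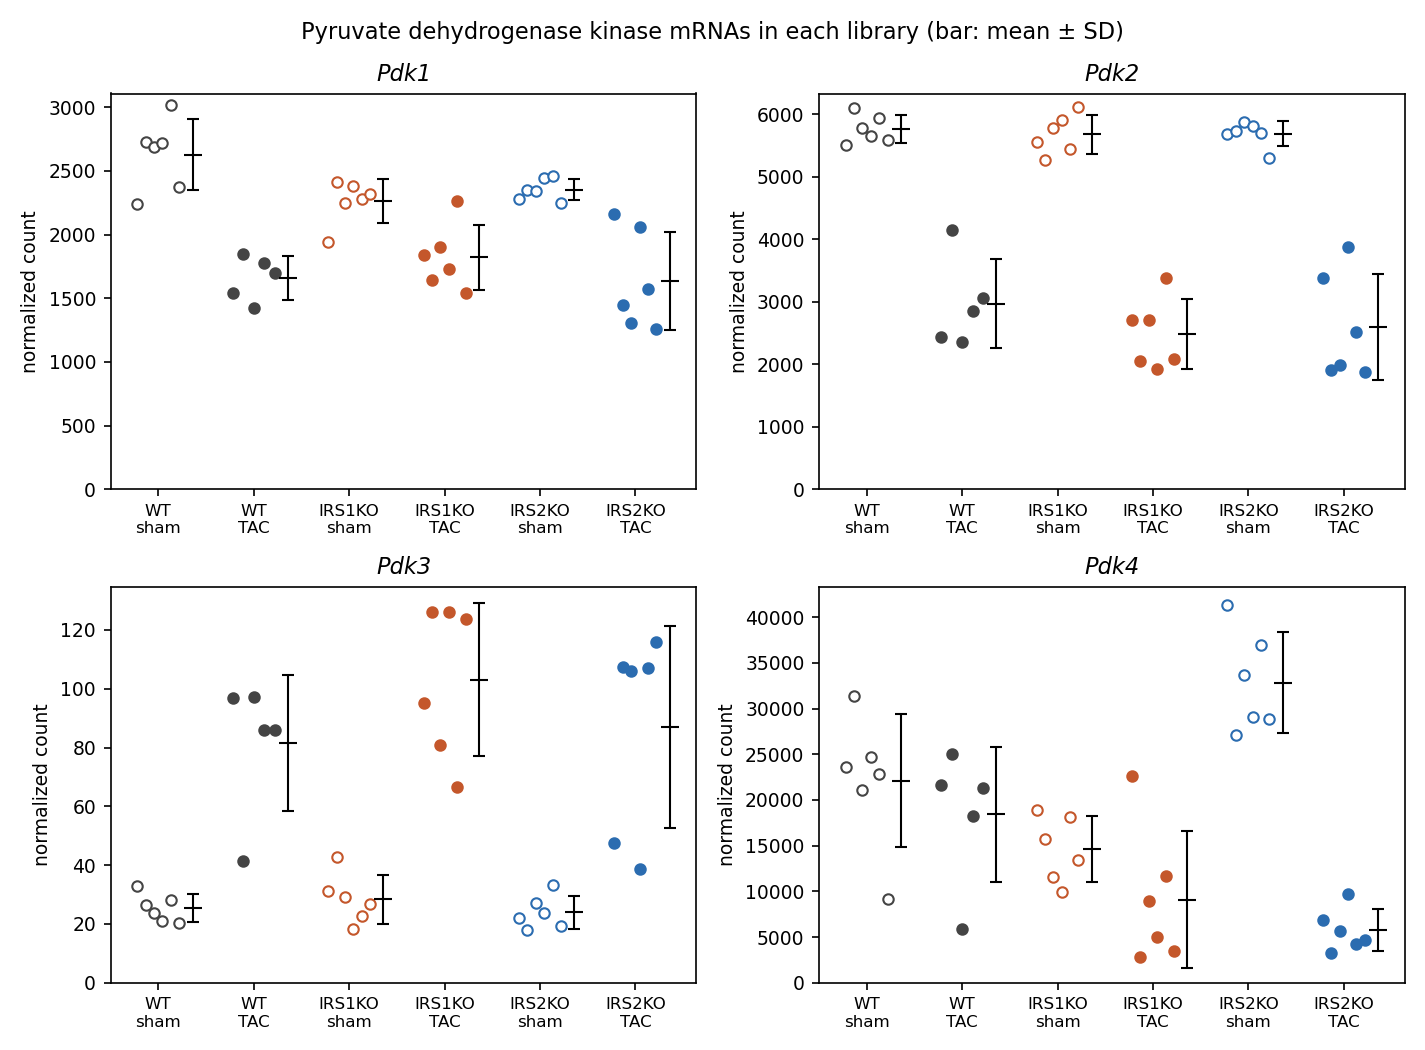
Normalized counts of Pdk1, Pdk2, Pdk3 and Pdk4 (vertical axes, from 0) in each library of the 6 groups, open points for sham and filled for TAC, with the group mean and SD beside them. Pdk2 in TAC lies below and Pdk3 in TAC above every sham library of the same genotype, while Pdk4 of IRS2KO drops from between 27088 and 41312 in sham to between 3284 and 9739 after TAC.

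Pdk2, the isoform found in most tissues, was the most even of the 4 in sham hearts, with a coefficient of variation of 3.55% to 5.55%. In WT sham hearts it ran from 5509 through a median of 5716 to 6106 normalized counts, and the 5 WT TAC hearts held 2439, 4140, 2350, 2857 and 3065. All 5 TAC libraries lay below all 6 sham libraries, with replicate 2 nearest to them. The means were 5762 ± 228 (SD, n = 6) and 2970 ± 717 (n = 5), 1.94-fold lower (log2 fold change -0.99, SE 0.15, adjusted p = 4.38e-06). In IRS1KO hearts Pdk2 ran from 5260 through 5671 to 6113 in sham and from 1919 through 2403 to 3384 after TAC. These groups also stood apart, at means of 5677 ± 315 and 2479 ± 562, 2.29-fold lower (log2 -1.22, SE 0.15, adjusted p = 2.77e-08). In IRS2KO hearts Pdk2 ran from 5300 through 5717 to 5871 in sham and from 1871 through 2258 to 3873 after TAC. The means were 5686 ± 202 and 2593 ± 851, 2.19-fold lower with no overlap (log2 -1.19, SE 0.15, adjusted p = 6.02e-08).

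The 4 TAC libraries with a cardiomyocyte marker sum nearest to sham were high in Pdk2. WT TAC replicate 2 (Pdk2 4140) had a cardiomyocyte marker sum of 1079400 and 27.0% mitochondrial-genome reads, IRS2KO TAC replicate 4 (3873) had 1107810 and 28.0%, and IRS2KO TAC replicate 1 (3386) had 954796 and 26.1%. IRS1KO TAC replicate 5 (3384) had a sum of 905064 and 23.6%. In the other TAC libraries the sum ran no higher than 805163, while their mitochondrial share overlapped with these (24.0% in WT TAC replicate 5). Of the 12 cardiomyocyte markers, 10 fell in WT, 8 in IRS1KO and 9 in IRS2KO, where 1 rose. Among all genes 26.6%, 31.7% and 31.1% were called lower in WT, IRS1KO and IRS2KO, and 31.3% higher in IRS2KO. The part of the shift in cardiomyocyte markers in the lower Pdk2 was not tested.

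Pdk1 fell less. In WT sham hearts it ran from 2237 through 2702 to 3020 normalized counts, and WT TAC hearts held 1542, 1846, 1426, 1781 and 1696. The groups stood apart, at 2627 ± 280 and 1658 ± 173, 1.58-fold lower (log2 -0.66, SE 0.11, adjusted p = 1.40e-05). In IRS2KO hearts Pdk1 ran from 2245 through 2347 to 2460 in sham and from 1259 through 1513 to 2165 after TAC. Again every TAC library lay below every sham library, with means of 2354 ± 85.3 and 1636 ± 387, 1.44-fold lower (log2 -0.56, SE 0.11, adjusted p = 4.32e-05). In IRS1KO hearts Pdk1 ran from 1939 through 2301 to 2410 in sham and from 1543 through 1787 to 2264 after TAC. Here 5 of 6 TAC libraries lay below the sham range, and the means of 2264 ± 170 and 1822 ± 253 were 1.24-fold apart (log2 -0.32, SE 0.11, adjusted p = 0.00969). With the same total for every library, which raises the median log2 fold change of all genes by TAC to 0.24 in WT, 0.30 in IRS1KO and 0.33 in IRS2KO, this last difference was -0.01 (adjusted p = 0.885).

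Pdk3, the least abundant of the family, was the 1 kinase that rose. In WT sham hearts it ran from 20.4 through 25.1 to 32.9 normalized counts, and WT TAC hearts held 97.0, 41.3, 97.3, 85.8 and 86.0. TAC replicate 2 was well below the other 4 but still above every sham library. The means were 25.4 ± 4.69 and 81.5 ± 23.2, 3.21-fold higher (log2 1.60, SE 0.26, adjusted p = 8.31e-06). In IRS1KO hearts Pdk3 ran from 18.4 through 28.0 to 42.6 in sham and from 66.4 through 109 to 126 after TAC. With no overlap, the means were 28.5 ± 8.34 and 103 ± 26.0, 3.62-fold higher (log2 1.83, SE 0.25, adjusted p = 2.36e-07). In IRS2KO hearts Pdk3 ran from 18.1 through 22.9 to 33.3 in sham and from 38.7 through 107 to 116 after TAC. The ranges did not meet, and the means were 23.9 ± 5.61 and 87.1 ± 34.4, 3.64-fold higher (log2 1.73, SE 0.25, adjusted p = 7.19e-07). The pseudocount of 1 understates such a change at low counts. Beside the rise of Pdk3, the summed macrophage and monocyte markers went from 3302 to 4671 in sham to 6775 to 23465 after TAC and the summed fibroblast markers from 10662 to 14565 to 30660 to 110879. Among all genes 28.3%, 32.4% and 31.3% rose and 26.6%, 31.7% and 31.1% fell in WT, IRS1KO and IRS2KO. Of the 9 fibroblast markers 6, 5 and 5 rose and 0, 1 and 2 fell in WT, IRS1KO and IRS2KO, with median log2 changes of 0.60, 0.45 and 0.76. The collagens Col1a1 and Col1a2 and the matrix protein Postn, which rise in activated fibroblasts, changed most, and Dcn fell in both knockouts (log2 -0.36 and -0.53). The part of these cells in the rise of Pdk3 was not tested.

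Pdk4, the kinase most closely tied to fatty acid use, varied widely between libraries, with a coefficient of variation of 16.8% to 32.9% in sham and 39.9% to 82.3% in TAC groups. In WT sham hearts it ran from 9141 through 23211 to 31400 normalized counts, and WT TAC hearts held 21688, 24979, 5925, 18262 and 21272. Except for sham replicate 6 and TAC replicate 3, the libraries of both groups lay between 18262 and 31400. The fitted difference was -0.33 (SE 0.39, 95% interval -1.13 to 0.47, adjusted p = 0.498), and without TAC replicate 3 it was 0.04 (adjusted p = 0.93). The interval does not show that WT hearts kept their Pdk4 level.

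In IRS1KO sham hearts Pdk4 ran from 9942 through 14601 to 18930, and after TAC from 2790 through 6969 to 22657. In TAC, 4 of 6 libraries lay below the sham range and replicate 1 lay above it. The means of 14640 ± 3604 and 9079 ± 7472 were 1.61-fold apart (log2 -1.04, SE 0.38, interval -1.80 to -0.27, adjusted p = 0.0166). This call was lost without TAC replicate 2 (adjusted p = 0.0696) or TAC replicate 6 (0.0591), with the same total per library (0.0587), in edgeR (0.0884) and in DESeq2 (0.0907). Leaving out 1 library at a time moved the ratio of means between 1.42 and 2.30. That ratio and the log2 change differ because the test averages log2 values, in which the high TAC replicate 1 weighs less.

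In IRS2KO sham hearts Pdk4 ran from 27088 through 31382 to 41312, the highest mean of any group, and after TAC from 3284 through 5195 to 9739. Every TAC library lay far below every sham library. The means were 32820 ± 5530 and 5759 ± 2298, 5.70-fold lower (log2 -2.58, SE 0.38, interval -3.35 to -1.82, adjusted p = 8.66e-07), and the ratio stayed between 5.25 and 6.61 with any 1 library left out. Replicates 1 and 4, whose cardiomyocyte marker sums were nearest to sham, held the 2 highest Pdk4 values of the TAC group, 6851 and 9739, against 3284 to 5674 in the other 4, and the part of tissue makeup was not tested.

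**Figure D2:**
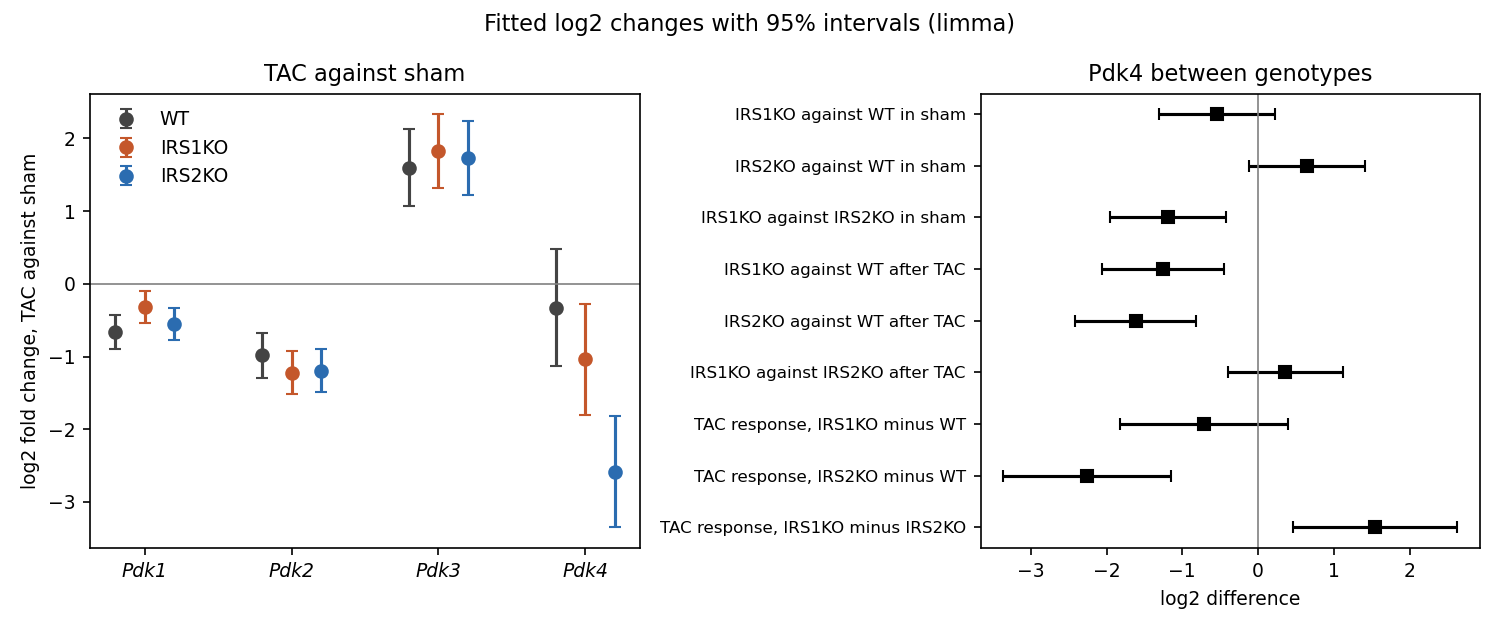
Fitted log2 changes with 95% intervals, on the left for TAC against sham in each genotype (vertical axis) by kinase and on the right for Pdk4 between genotypes (horizontal axis). Pdk1 and Pdk2 lie below 0 and Pdk3 above 0 in all 3 genotypes (Pdk1 in IRS1KO at -0.32, but -0.01 with the same total per library), and Pdk4 runs from -0.33 in WT through -1.04 in IRS1KO to -2.58 in IRS2KO. In limma no difference of the Pdk4 response between genotypes passed adjustment.

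Ordered by mean, Pdk4 was highest in IRS2KO sham, then WT sham, WT TAC, IRS1KO sham, IRS1KO TAC and IRS2KO TAC. Of these neighbours, IRS1KO sham and IRS1KO TAC differed by the test, WT TAC and IRS1KO sham were not compared and overlapped in range, and the other neighbours did not pass it. Pdk1 and Pdk2 each had the 3 sham groups on top and the 3 TAC groups below, and Pdk3 the reverse. Within sham and within TAC none of these neighbours differed by the test for Pdk1, Pdk2 or Pdk3.

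Between genotypes in sham hearts, Pdk4 was lower in IRS1KO than in IRS2KO, 2.24-fold by the means and with no overlap (log2 -1.19, SE 0.38, interval -1.95 to -0.42, adjusted p = 0.0427). In that comparison 8.30% of all genes were called, 3.67% higher and 4.64% lower. The call is near the threshold and was lost without IRS1KO sham replicate 2, 3, 4 or 6 or without any 1 of the 6 IRS2KO sham libraries (adjusted p from 0.0527 to 0.0992), in edgeR (0.0517), with no filter (0.0931) and after quantile normalization (0.0812). Neither genotype differed from WT by the test: IRS1KO was -0.54 (interval -1.31 to 0.22, adjusted p = 0.527, with 4.65% of genes called, 2.00% higher and 2.65% lower) and IRS2KO 0.64 (interval -0.12 to 1.41, adjusted p = 1). In that last comparison limma called 0 genes (0%), with 534 at an unadjusted p under 0.05, edgeR called 0 and DESeq2 2.

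In the same contrast of IRS1KO with IRS2KO sham hearts, 3 of 9 glucocorticoid-responsive genes were called lower, the metallothionein Mt2 (-1.37, adjusted p = 0.0140), the receptor co-chaperone Fkbp5 (-1.39, adjusted p = 0.0148) and Mt1 (-0.83, adjusted p = 0.0235). None of 10 FoxO-responsive genes was called, and of 16 other PPAR-responsive genes 1 was called lower. In this contrast 4.64% of all genes were called lower and 3.67% higher. The medians of the glucocorticoid and FoxO lists were -0.34 and -0.16, and that of the 16 other PPAR-responsive genes was -0.30, beside -0.003 over all genes. Between these groups 1 of 9 fibroblast markers was called lower, and 1 of 7 smooth muscle and 1 of 2 atrial markers higher, with none of the cardiomyocyte or macrophage markers called, and their part in the Pdk4 difference was not tested.

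After TAC, Pdk4 was 2.03-fold lower in IRS1KO than in WT hearts by the means (log2 -1.25, SE 0.39, interval -2.05 to -0.45) and missed the threshold at an adjusted p of 0.0594, where 4.70% of genes were called, 2.02% higher and 2.68% lower. It passed without WT TAC replicate 3 (0.00784) and without IRS1KO TAC replicate 1 (0.00687) or 5 (0.0278), among others. It also passed with library weights (0.00283, log2 -1.75) and with the replicate number as a block (0.0424, log2 -1.25). With 1 library left out it ranged from 0.00687 to 0.19. In IRS2KO hearts it was 3.20-fold lower than in WT (log2 -1.61, SE 0.39, interval -2.41 to -0.81). Of the 6 IRS2KO TAC libraries 4 lay below every WT TAC library, and without WT TAC replicate 3 at 5925 the WT libraries ran from 18262 up, above all 6. The adjusted p was 0.509, although Pdk4 ranked 5 of 13695 genes by its unadjusted p of 0.000252. In that comparison limma called 0 genes (0%), with 931 at an unadjusted p under 0.05, and edgeR and DESeq2 each called 0. IRS1KO and IRS2KO TAC hearts did not differ in Pdk4 by the test (0.36, interval -0.40 to 1.12, adjusted p = 0.804, with 2.36% of genes called, 1.08% higher and 1.28% lower).

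The response to TAC was then compared between genotypes. For Pdk4 it was lower in IRS2KO than in WT by 2.26 on the log2 scale (log2 difference -2.26, SE 0.54, interval -3.36 to -1.15), rank 4 of 13695 genes by an unadjusted p of 0.000218 and at an adjusted p of 0.685. No gene was called in that contrast by limma (0%, with 713 at an unadjusted p under 0.05), edgeR (0) or DESeq2 (0). Between IRS1KO and IRS2KO the difference was 1.55 (SE 0.53, interval 0.47 to 2.63, adjusted p = 0.206 in limma and 0.049 in DESeq2, with 0.409% of genes called by limma, 0.263% higher and 0.146% lower). Between IRS1KO and WT it was -0.71 (interval -1.82 to 0.40, adjusted p = 0.70, with 0.110% of genes called, 0.0365% higher and 0.0730% lower). In limma none of these 3 differences passed adjustment over all genes.

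For Pdk1, Pdk2 and Pdk3 none of 27 limma tests between genotypes passed, 9 for each kinase over sham, TAC and the responses. Scaled to the same total per library, 1 passed (Pdk1 in IRS1KO against WT after TAC, log2 0.26, adjusted p = 0.0286), and with library weights 1 (Pdk2 in the same contrast, -0.34, adjusted p = 0.043). Pdk2 in sham hearts differed from WT by -0.02 on the log2 scale in both knockouts, each with an interval of -0.32 to 0.28. The smallest unadjusted p of the 27 was 0.0341, for a Pdk1 response that was 0.34 less negative in IRS1KO than in WT (interval 0.03 to 0.66, adjusted p = 0.524). The intervals for Pdk3, at 18.1 to 42.6 normalized counts per sham library, were wider, -0.38 to 0.63 for IRS1KO and -0.60 to 0.41 for IRS2KO against WT in sham. Contrasts of either knockout with WT share the WT libraries.

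Levels of different genes can be compared only per length, here normalized counts per kb of merged exons. By this measure Pdk4 made up 72.7% ± 8.64 of the summed kinase mRNA in WT sham, 65.7% ± 6.58 in IRS1KO sham and 81.3% ± 2.40 in IRS2KO sham hearts (SD, n = 6). Pdk2 came next at 23.0%, 29.3% and 15.9%, then Pdk1 at 4.23%, 4.76% and 2.68%, and Pdk3 was 0.178% or less. After TAC the Pdk4 share was 79.3% ± 8.92 (n = 5) in WT, 64.2% ± 13.9 in IRS1KO and 59.8% ± 5.51 in IRS2KO. In IRS2KO hearts every sham share (78.4% to 84.8%) was above every TAC share (52.9% to 65.8%), while Pdk2 went from 15.9% to 30.6% and Pdk1 from 2.68% to 8.08%. The Pdk3 share reached 0.627%, 1.58% and 1.49% after TAC in WT, IRS1KO and IRS2KO, so the kinase that rose remained the smallest. The sum of the 4 per kb was 8468 ± 2133 in WT sham and 6432 ± 2270 in WT TAC, 6266 ± 953 and 3644 ± 2251 in IRS1KO, and 11457 ± 1589 and 2704 ± 928 in IRS2KO. These shares are a description without a test and say nothing of kinase protein or activity.

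**Figure D3:**
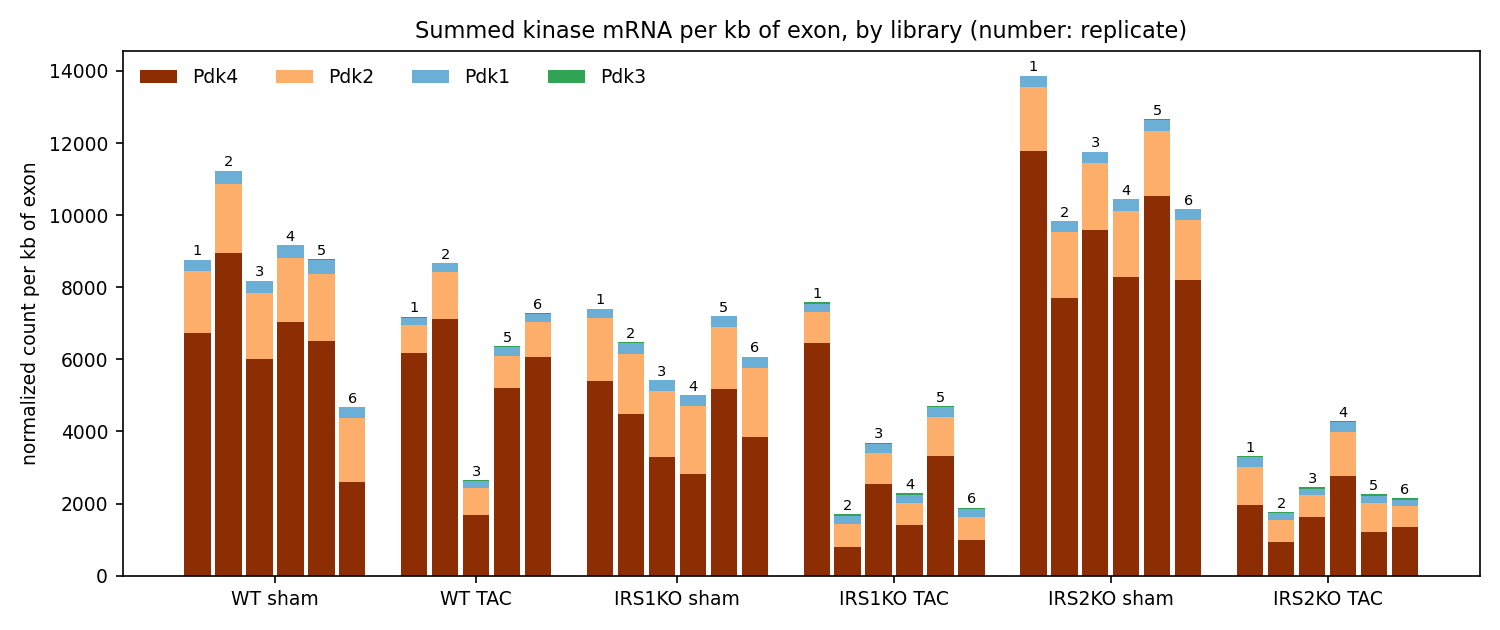
Summed level of the 4 kinases per kb of merged exon (vertical axis, normalized counts per kb, from 0) in each library, stacked by kinase, with the replicate number on top. The bars of IRS2KO drop from a mean of 11457 in sham to 2704 after TAC, most of it in the Pdk4 segment.

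Within groups, hearts with more of 1 kinase were compared for the others, on deviations of log2 values from the group mean. Over the 17 TAC libraries Pdk2 and Pdk1 went together (Pearson r = 0.915, Spearman rho = 0.875) and Pdk3 ran opposite to both (r = -0.948, rho = -0.914 with Pdk2 and r = -0.879, rho = -0.848 with Pdk1). All 3 had an adjusted permutation p of 0.00012 for r over 12 relations, with 0.00066, 0.00012 and 0.00069 for rho in the same order, and the raw p of 1e-05 for Pdk2 with Pdk3 is the smallest that 100000 permutations can give. Pdk4 followed Pdk2 less closely (r = 0.670, rho = 0.708, adjusted permutation p = 0.00798 and 0.00295), and likewise Pdk1 (r = 0.588, rho = 0.674, 0.0114 and 0.00396) and, in reverse, Pdk3 (r = -0.594, rho = -0.706, 0.0156 and 0.00069). With the same total per library these 3 relations with Pdk4 no longer passed (r = 0.544 with Pdk2, 0.304 with Pdk1 and -0.531 with Pdk3), while the other 3 did. Without the 2 libraries farthest in the first kinase the 6 values of r were 0.886, -0.920, -0.807, 0.629, 0.581 and -0.541, in the same order. The 4 TAC libraries named above for their high Pdk2 and cardiomyocyte marker sums lie at one end of these relations, and the part of tissue makeup was not tested. Over the 18 sham libraries no relation had an adjusted p under 0.05, and r ran from -0.151 to 0.451.

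**Figure D4:**
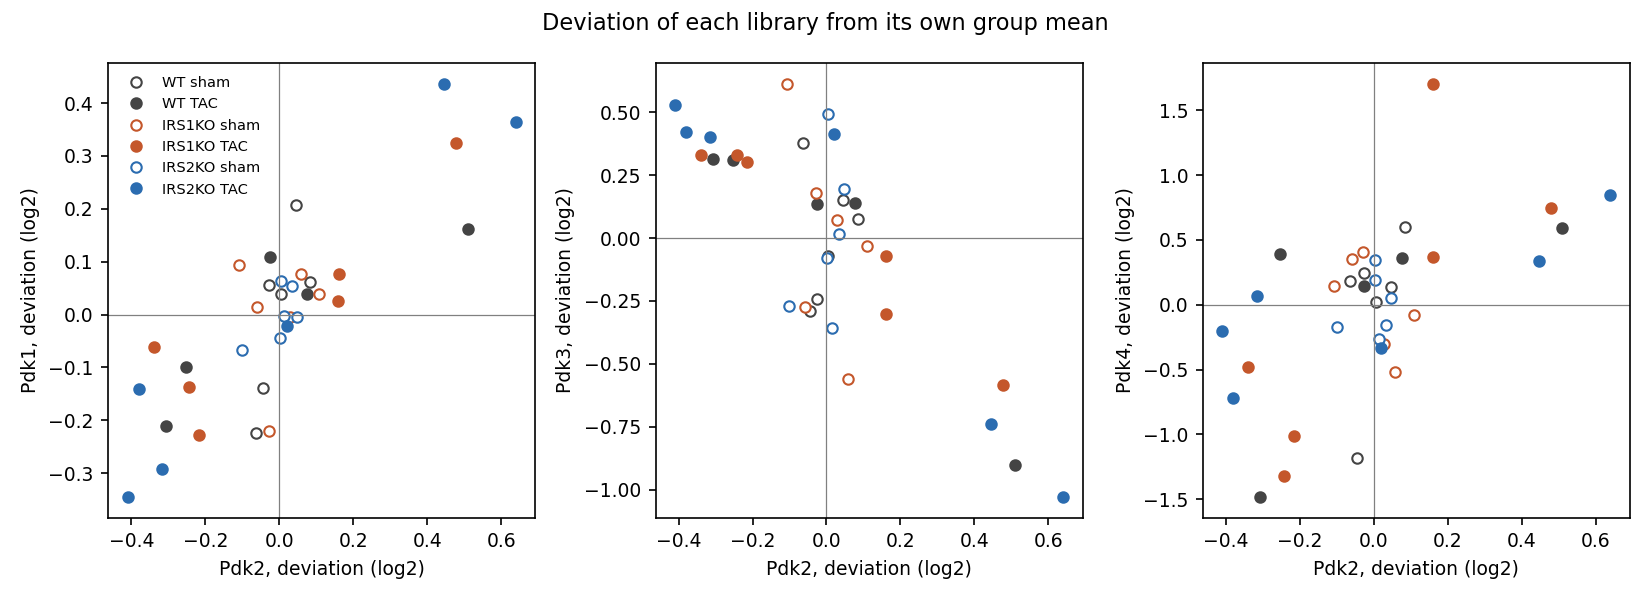
Deviation of each library from its own group mean in log2 units, Pdk2 on the horizontal axes against Pdk1, Pdk3 and Pdk4 on the vertical axes, open points for sham and filled for TAC. The TAC points spread along a rising line for Pdk1 (r = 0.915) and a falling line for Pdk3 (r = -0.948), and the sham points stay near 0 in Pdk2.

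The genes with the most similar pattern over all 35 libraries, among 12496 compared, were for Pdk2 the muscle glycogen phosphorylase Pygm (r = 0.992), Dele1 (0.990) and the leucine breakdown enzyme Ivd (0.990). For Pdk1 they were the Rag GTPase Rragd (0.938), the catalase Cat (0.933) and Zfp106 (0.933), and for Pdk3 S100a11 (0.972), Ckap4 (0.972) and the non-sarcomeric myosin light chain Myl6 (0.971). For Pdk4 they included Txnip (0.899) and the adiponectin receptor Adipor2 (0.883). By deviations from group means, Pdk2 was most like Pygm (0.972), the tricarboxylic acid cycle enzyme Ogdh (0.967) and the cardiac myosin Myh6 (0.961), and Pdk1 like Golga4 (0.936), Rragd (0.928) and Fech (0.911). Pdk3 was most like Phlda3 (0.883), Ckap4 (0.881) and Arf4 (0.877). Pdk4 was most like the acyl-CoA thioesterases Acot2 (0.815) and Acot1 (0.803), near-identical copies whose reads may be split uncertainly, and Txnip (0.797). These values describe shared patterns across libraries that also share group, depth and tissue makeup.

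The complex that the kinases act on and the phosphatases that oppose them were read next. All 5 subunit genes of the complex (Pdha1, Pdhb, Dlat, Dld and Pdhx) fell after TAC in each genotype, with medians of -0.53 in WT, -0.69 in IRS1KO and -0.78 in IRS2KO beside -0.013, -0.007 and -0.007 over all genes. The share of all genes called lower was 26.6% in WT, 31.7% in IRS1KO and 31.1% in IRS2KO hearts. After scaling to the same total, 2, 4 and 5 of the 5 were still called lower, beside 1583, 2164 and 1890 of all 13695 genes. Pdha1, the subunit the kinases phosphorylate, averaged 12227 ± 745 in WT sham and 8441 ± 1503 in WT TAC hearts (log2 -0.55, SE 0.15, adjusted p = 0.00221). The phosphatase Pdp2 fell by 1.49 on the log2 scale in WT (SE 0.27, adjusted p = 2.86e-05), by 1.55 in IRS1KO and by 1.75 in IRS2KO. Pdp1 was -0.26 in WT (adjusted p = 0.116) and fell by 0.39 and 0.42 in the knockouts, though not with the same total per library (-0.09 and -0.08). The phosphatase regulator Pdpr was called lower in WT (-0.49) and IRS2KO (-0.66), in WT not with the same total per library (-0.23). No gene of the complex or of the phosphatases differed between genotypes by the test.

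Of 7 genes of pyruvate transport, lactate and carboxylation, 2 rose and 4 fell in WT, 2 and 4 in IRS1KO, and 2 and 3 in IRS2KO, and with the same total per library 2 and 2, 3 and 2, and 3 and 3. Of all 13695 genes, 6221 rose and 1583 fell in WT with the same total, 7181 and 2164 in IRS1KO, and 7438 and 1890 in IRS2KO. With the authors' scaling 28.3% of all genes rose and 26.6% fell in WT, 32.4% and 31.7% in IRS1KO, and 31.3% and 31.1% in IRS2KO. The part of the 7 that rose was near these shares, and the part that fell was above them. The lactate exporter Slc16a3 rose by 2.65, 3.35 and 2.65 on the log2 scale and the dehydrogenase subunit Ldha by 0.23, 0.36 and 0.32. The subunit Ldhb, most abundant in heart, fell by 1.00, 1.42 and 1.31, and Mpc2 of the mitochondrial pyruvate carrier by 0.65, 0.99 and 1.03. Bckdk, the related kinase of the branched-chain ketoacid dehydrogenase, fell by 0.37, 0.52 and 0.58, but in WT not with the same total per library (-0.11, adjusted p = 0.136).

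**Figure D5:**
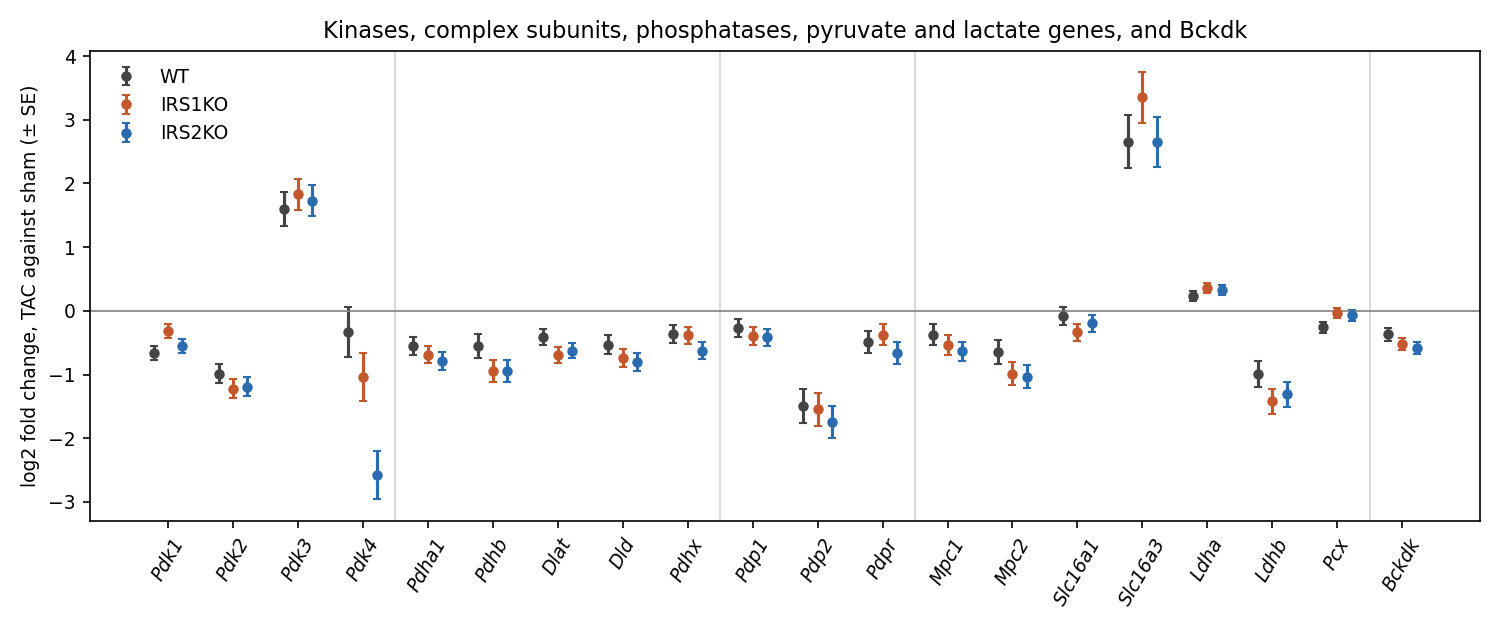
Fitted log2 fold changes of TAC against sham (vertical axis, bars are SE) in the 3 genotypes for the kinases, the complex subunits, the phosphatases, genes of pyruvate and lactate handling, and Bckdk, separated by grey lines. Most points lie below 0, Slc16a3 and Pdk3 stand above 1.5, and Pdk4 has the widest spread between genotypes among the genes drawn. No difference of its response between genotypes passed adjustment in limma.

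Genes known to respond to the same inputs as Pdk4 were read beside it. Of 16 other PPAR-responsive genes, 13 fell and 2 rose in WT, and 14 fell and 2 rose in each knockout, with medians of -0.998, -1.30 and -1.31. Over all genes 26.6% were called lower and 28.3% higher in WT. The shares were 31.7% and 32.4% in IRS1KO hearts, and 31.1% and 31.3% in IRS2KO hearts. When libraries were scaled to the same total, 12, 13 and 13 of the 16 were called lower, beside 1583, 2164 and 1890 of all 13695 genes. In WT, where Pdk4 itself was not called, the lipoprotein receptor Vldlr fell by 1.16, Hadha of fatty acid oxidation by 1.03 and Acadm by 1.18. In IRS2KO they fell by 1.57, 1.36 and 1.57. The 2 that rose were Angptl4, a lipoprotein lipase inhibitor (1.76 in WT), and Ucp2 (0.89). In IRS1KO against WT after TAC 6 of the 16 were called lower and none higher, among them the lipid droplet protein Plin5 (-1.25, adjusted p = 0.0190), the carnitine carrier Slc25a20 (-0.66, adjusted p = 0.0292) and Fabp3 (-0.80, adjusted p = 0.0378). In that contrast 2.68% of all genes were called lower and 2.02% higher. In IRS1KO against IRS2KO after TAC 1 of the 16 was called higher and none lower, beside 1.08% and 1.28% of all genes.

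Of 10 FoxO-responsive genes 9 fell in each genotype, with medians of -0.70 in WT, -0.62 in IRS1KO and -1.13 in IRS2KO, and with the same total per library 8, 4 and 8 were called lower. Pik3ip1, an inhibitor of PI3 kinase, fell in all 3 (log2 -1.31, -1.18 and -1.74), and the cyclin Ccng2 by 0.60, 0.55 and 0.92. Bcl6 rose in IRS1KO (0.57). Of 9 glucocorticoid-responsive genes, 1 rose and 2 fell in WT, 3 rose and 1 fell in IRS1KO, and 5 fell and none rose in IRS2KO. With the same total per library these counts were 4 and 1, 4 and 1, and 0 and 3. Of all 13695 genes, 6221 rose and 1583 fell in WT with the same total, 7181 and 2164 in IRS1KO, and 7438 and 1890 in IRS2KO. Over all genes with the authors' scaling 28.3% rose and 26.6% fell in WT, 32.4% and 31.7% in IRS1KO, and 31.3% and 31.1% in IRS2KO. In either direction 54.9%, 64.1% and 62.4% of all genes were called, a larger part than of the glucocorticoid list. Klf9 fell by 0.92, 0.84 and 1.58 in the 3 genotypes, Mt2 rose by 1.65 in WT and 1.76 in IRS1KO, and Tsc22d3 fell by 1.13 in IRS2KO. No gene of the FoxO or glucocorticoid list passed the test for a different response to TAC in IRS2KO than in WT, where no gene at all did.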

How the data were processed

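The authors deposited 1 table of normalized counts, a signal in which each gene's reads are divided by a size factor of the library. Per the submitters' processing notes HISAT2 2.0.6, HTSeq 0.7.1, DESeq2 and GRCm38 were used, with no role given, and per the labels' protocols the libraries were stranded mRNA libraries. Which annotation was counted was not given in the sources used here. Of 27012 gene identifiers 26904 matched GENCODE vM21, which gave symbols, positions and exon lengths. Whole reads were recovered from 100% of values within 0.001. The size factors equal those of DESeq2, which takes the bulk of genes as unchanged. No 2 replicates agreed within counting noise (lowest chi-square per degree of freedom 2.41 over 85 pairs).

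The main test was limma 3.58.1 (R 4.3.3, trend and robust) on log2(value + 1), which understates changes of low genes, for 13695 genes with a mean of at least 10, in 1 model with a mean for each of 6 groups and 12 contrasts. Tests were two-sided and adjusted by Benjamini-Hochberg within a contrast. Also tried were edgeR 4.0.16 and DESeq2 1.42.0 on recovered reads, library weights, a replicate block, quantile normalization, scaling to the same total per library, a fit of only the groups compared, pseudocounts of 0.5 and 5, other filters (none, or a mean of 50) and each library left out. The limma step was tried on simulated counts with few changed genes, which cannot test the scaling or the other steps. Relations used 100000 permutations within groups. Intervals are 95%.

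The kinases and the 9 pathway lists were chosen with earlier results of these data known. Of a list, counts are given with the 2 to 4 called members of smallest p, any member of the complex and phosphatase lists may be named, and up to 3 like genes are named per kinase and measure. The values of 1 gene these rules name are not reported here. The 12 marker lists were those of cardiomyocytes, atrium, skeletal muscle, smooth muscle, endothelium, erythroid cells, adipocytes, fibroblasts, neutrophils, macrophages and monocytes, B cells, and T and NK cells. After TAC 26.6%, 31.7% and 31.1% of all genes fell and 28.3%, 32.4% and 31.3% rose in WT, IRS1KO and IRS2KO. Endothelial markers fell (6, 7 and 7 of 7 in WT, IRS1KO and IRS2KO), as did erythroid markers (5, 4 and 5 of 5). Fibroblast markers rose in 6, 5 and 5 of 9 and fell in 0, 1 and 2. Smooth muscle markers rose in 2, 1 and 2 of 7 and fell in 4 in each. Of 2 neutrophil markers tested 2, 1 and 1 rose, of 2 atrial markers 1 fell in each, and the 1 skeletal muscle marker tested rose in each. No T and NK cell, B cell or adipocyte marker passed the filter.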

Additional observations from a re-analysis of the deposited data

Results flagged for a closer look

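A sample far from the others of its group was found in 3 of 24 groups tested (4 kinases in 6 groups), and chance flags about 1 in 20. Pdk1 in IRS1KO sham replicate 1 was 1939 normalized counts, below the other 5 libraries, with a gap of 0.660 of the range against a critical value of 0.625. Pdk2 in IRS2KO sham replicate 6 was 5300, the lowest of its group, with a gap of 0.686 against 0.625, and was still above every TAC library. Pdk3 in WT TAC replicate 2 was 41.3, below the other 4, with a gap of 0.795 against 0.71. That library also had the highest Pdk2 and the highest cardiomyocyte marker sum of its group.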

How the results depend on the processing

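Of 21 results of the kinases (12 of TAC against sham and 9 of Pdk4 between genotypes), 15 kept their direction and their side of the threshold under all 11 alternatives and with each of 35 libraries left out. The rest are given as adjusted p, and the cause was not tested. The fall of Pdk1 in IRS1KO was 0.885 with the same total per library. Pdk4 in WT reversed without WT TAC replicate 3 (log2 0.04), with a range of 0.23 to 0.93 over libraries left out. The fall of Pdk4 in IRS1KO was 0.0587 with the same total, 0.0884 in edgeR and 0.0907 in DESeq2, and 0.000958 to 0.0696 over libraries left out. Pdk4 in IRS1KO against IRS2KO sham was 0.0931 with no filter, 0.0812 after quantile normalization and 0.0517 in edgeR, and 0.0206 to 0.0992 over libraries left out. Pdk4 in IRS1KO against WT after TAC was 0.00283 with library weights and 0.00687 to 0.19 over libraries left out, passing without WT sham 6 (0.0495), WT TAC 3 (0.00784), IRS1KO TAC 1 (0.00687) or 5 (0.0278), or IRS2KO TAC 4 (0.0468). The difference of the Pdk4 response between IRS1KO and IRS2KO was 0.049 in DESeq2. Of 27 genotype tests of Pdk1 to Pdk3, 1 was called with the same total (Pdk1, IRS1KO against WT after TAC, log2 0.26, 0.0286) and 1 with library weights (Pdk2, same contrast, -0.34, 0.043).

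Of 85 same-numbered pairs of libraries from different groups, 38 had a correlation of deviations over 0.1 (-0.603 to 0.568, median 0.0878). Pairs with different numbers were not computed, so these values do not tell whether replicate numbers mark pairs or batches. With the replicate number as a block, Pdk4 in IRS1KO against WT after TAC was 0.0424, and no other kinase result changed its call.

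With the same total per library the genes called higher and lower after TAC were 6221 and 1583 in WT (3877 and 3638 with the authors' scaling), 7181 and 2164 in IRS1KO (4442 and 4335) and 7438 and 1890 in IRS2KO (4286 and 4260). It moved the median of all genes in IRS1KO against WT after TAC to 0.14. The counts of the pathway lists under it were added after seeing the data. Counts of genes called moved by over 1.5 times as follows. IRS1KO against WT in sham went from 637 to 1795 with library weights and 1483 with only the groups compared, and IRS1KO against IRS2KO in sham from 1137 to 2575 and 2148. IRS1KO against WT after TAC went from 643 to 2183 and 228, and 369 to 1313 over libraries left out, and IRS1KO against IRS2KO after TAC from 323 to 140 with only the groups compared. IRS2KO against WT went from 0 in sham to 1 with no filter, 31 with only the groups compared, 23 with weights and 2 in DESeq2, and from 0 after TAC to 2 with no filter. The response of IRS1KO minus WT went from 15 to 192 with weights, 7 with the same total and 54 in DESeq2, and 2 to 53 over libraries left out. The response of IRS1KO minus IRS2KO went from 56 to 26 with no filter, 25 with the same total, 34 after quantile normalization, 21 with only the groups compared, 138 with weights and 157 in DESeq2, and 17 to 180 over libraries left out.

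In sham, r of Pdk1 with Pdk3 (-0.00048) was 0.0342 with the same total and 0.391 without the 2 farthest libraries, and Pdk2 with Pdk4 (0.0180) was -0.125 with the same total. In TAC with the same total, r was 0.304 for Pdk1 with Pdk4, 0.544 for Pdk2 with Pdk4 and -0.531 for Pdk3 with Pdk4, and none of these 3 passed. With the length of the longest coding transcript the Pdk4 share was 65.6%, 57.8% and 75.6% in WT, IRS1KO and IRS2KO sham and 73.4%, 56.6% and 51.5% after TAC.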

Other observations

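Of 11 factors known to act on transcription of the kinases, 1 rose and 7 fell after TAC in WT and in IRS1KO, and 1 rose and 8 fell in IRS2KO. These counts became 2 and 3, 2 and 3, and 2 and 7 when libraries were scaled to the same total. Over all 13695 genes 28.3% rose and 26.6% fell in WT, 32.4% and 31.7% in IRS1KO, and 31.3% and 31.1% in IRS2KO, and with the same total 6221 and 1583, 7181 and 2164, and 7438 and 1890 genes did. Hif1a, the hypoxia factor, rose by 0.84, 1.20 and 0.80 on the log2 scale in WT, IRS1KO and IRS2KO, and the PPAR partner Rxra fell by 0.62, 0.63 and 0.67. In IRS1KO against WT after TAC Hif1a was the 1 factor called, higher by 0.56 (adjusted p = 0.00755), where 2.02% of all genes were called higher and 2.68% lower. In IRS1KO against IRS2KO after TAC 1 of the 11 factors was also called higher and none lower, beside 1.08% and 1.28% of all genes.

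Of 10 hypoxia-responsive genes 3 rose and 3 fell in WT, 3 rose and 2 fell in IRS1KO, and 3 rose and 5 fell in IRS2KO, and with the same total per library 3 and 2, 6 and 1, and 4 and 2. With the authors' scaling 28.3% of all genes rose and 26.6% fell in WT, 32.4% and 31.7% in IRS1KO, and 31.3% and 31.1% in IRS2KO. The WT counts with that scaling are near these shares. With the same total, 6221 of all 13695 genes rose and 1583 fell in WT, 7181 and 2164 in IRS1KO, and 7438 and 1890 in IRS2KO. The glucose transporter Slc2a1 rose by 0.98, 1.57 and 1.24, while the oxygen-sensing hydroxylase Egln1 fell by 0.98, 1.13 and 1.17. Egln3 was higher in IRS1KO than in WT hearts after TAC by 0.73 (adjusted p = 0.000289) and than in IRS2KO hearts in sham by 0.50 (adjusted p = 0.00735).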
